A study of Mus musculus with 11 samples.

Results

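Major histocompatibility complex (MHC) class II presentation genes were followed in 11 pools of cDC1s, the conventional dendritic cells of type 1, which had been sorted from B16 melanoma tumors grown in mice. The 10 genes were chosen by name from the 24421 genes of the count table, and all 10 passed the filter on low counts. They comprise the chains of the class II molecules (*H2-Aa*, *H2-Ab1* and *H2-Eb1*), the invariant chain (*Cd74*), the peptide editors (*H2-DMa*, *H2-DMb1* and *H2-DMb2*), the editor inhibitors (*H2-Oa* and *H2-Ob*) and the class II transactivator (*Ciita*). The study asked how the transcriptome of tumor cDC1s depends on XBP1, the transcription factor of the unfolded protein response, and on IRE1, the endoplasmic reticulum sensor that splices its mRNA.

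Control pools came from mice with floxed alleles and no Cre: XBP1fl/fl for control replicates 1 to 3, and XBP1fl/fl IRE1fl/fl for control replicate 4. XBP1ΔDC mice carried XBP1fl/fl with *Itgax*-Cre, which deletes exon 2 of *Xbp1* in cells that express CD11c. XBP1ΔDCIRE1truncDC mice carried the same alleles plus IRE1fl/fl, so that exons 20 to 21 of *Ern1* were also deleted and IRE1 lost its RNase domain. All mice were on a C57BL/6 background, of both sexes and 6 to 14 weeks old. Each of the 4 control, 4 XBP1ΔDC and 3 XBP1ΔDCIRE1truncDC pools held 5000 to 20000 cells from 2 to 4 mice, and *Itgax*-Cre is active in other CD11c-expressing cells of these mice as well. The study's gating scheme for tumor cDC1s passes through a gate on surface MHC class II, so cells with little class II protein would be left out. Whether the cells for RNA-seq were sorted with that same scheme is not given in the sources used here.

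Depth was 21089065 to 26843486 counts per pool. The 11 cDC1 markers, *Xcr1* and *Clec9a* among them, summed to 9316 to 11085 CPM (counts scaled to library size and normalized by TMM) in every pool. Their log2 fold changes against control were 0.01 and 0.02 in XBP1ΔDC and 0.04 and 0.08 in XBP1ΔDCIRE1truncDC. Of the 11 markers, 1 was lower at an unadjusted p under 0.05 from edgeR in XBP1ΔDC (4.95% of all genes), and 2 were lower (5.44%) and 1 higher (5.73%) in XBP1ΔDCIRE1truncDC, with 0 called. The lower ones were *Itgae*, the integrin CD103, at -0.26 in XBP1ΔDC and -0.24 in XBP1ΔDCIRE1truncDC (adjusted p = 0.254 and 0.301 from edgeR), and *Cd24a* at -0.23 in XBP1ΔDCIRE1truncDC (adjusted p = 0.274 from edgeR). These values lie within the range of those of the class II genes, and their part in the results was not tested. B cells also express class II genes, and their 8 markers summed to 0.223 to 2.76 CPM, with *Pax5*, which specifies the B cell lineage, at 0 counts in all pools. The 6 T and NK cell markers summed to 0.357 to 1.52 CPM in control and 0.268 to 1.42 CPM in XBP1ΔDC. In XBP1ΔDCIRE1truncDC pools they summed to 0.695 to 7.47 CPM. The 7 markers of cDC2s, the conventional dendritic cells of type 2, summed to 25.7 to 68.5 CPM in control. Their sums were 29.0 to 64.2 CPM in XBP1ΔDC and 38.6 to 56.0 CPM in XBP1ΔDCIRE1truncDC pools. Macrophage and monocyte markers, 11 genes of which some are also expressed by dendritic cells, summed to 1353 to 1977 CPM in control, 1386 to 1830 CPM in XBP1ΔDC and 1135 to 1913 CPM in XBP1ΔDCIRE1truncDC pools. The 5 plasmacytoid dendritic cell markers summed to 102 to 118, 81.2 to 115 and 93.9 to 123 CPM in that order. Of the 4 tested, 3 were below 0 and 1 above in each comparison with control. Among the 3, *Siglech* had log2 fold changes of -1.12 and -1.85 (adjusted p = 0.804 and 0.397 from edgeR). The part of *Siglech* in the results was not tested. Melanoma markers, 7 genes, summed to 8.96 to 60.9 CPM in control and 12.2 to 64.7 CPM in XBP1ΔDC. In XBP1ΔDCIRE1truncDC pools they summed to 8.74 CPM or more but stayed below the lowest XBP1ΔDC pool, and their part in the results was not tested. *Xbp1* was at 244 to 271 CPM in control, 130 to 165 CPM in XBP1ΔDC and 179 to 236 CPM in XBP1ΔDCIRE1truncDC pools, and counts over the whole gene do not resolve the deleted exon. *Ern1*, counted in the same way, had log2 fold changes against control of -0.17 in XBP1ΔDC and 0.62 in XBP1ΔDCIRE1truncDC.

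Class II molecules are pairs of an alpha and a beta chain that present peptides from endosomes to CD4+ T cells. The new pair is assembled in the endoplasmic reticulum with the invariant chain, which blocks the groove and directs the complex to endosomes. There H2-DM removes the remaining invariant chain fragment and selects stable peptides, and H2-O holds H2-DM back. CIITA binds no DNA by itself. It docks onto RFX, NF-Y and CREB factors that sit on the X and Y boxes shared by class II promoters, and its level sets class II transcription in antigen-presenting cells. In dendritic cells, class II transcription is known to be high before maturation and to be shut down later, while ubiquitination by MARCH1 removes class II from the surface of immature cells.

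Of the 10 genes, 8 lie within 224 kb of chromosome 17 (GRCm38, 34092340 to 34316674), in the order *H2-Oa* (34092340 to 34095234), *H2-DMa* (34119541 to 34139101), *H2-DMb2* (34143307 to 34151555), *H2-DMb1* (34153072 to 34160230), *H2-Ob* (34238903 to 34254414), *H2-Ab1* (34257689 to 34269419), *H2-Aa* (34282744 to 34287823, the minus strand) and *H2-Eb1* (34305867 to 34316674). *Ciita* lies on chromosome 16 (10480059 to 10528418). RefSeq promoter entries (GRCm38.p6, 250 bases before to 50 after a start) matched 7 of the 10 genes. In 4 of these 7 (*H2-Oa*, *H2-Ob*, *H2-Eb1* and *H2-DMb1*) the letters AGNAAC, the core of the X box, were followed on the same strand by ATTGG, the core of the Y box, with 25 to 45 bases between their starts. The pair was present in 1.14% of all 32851 promoter entries. The windows around it are shown 5′ to 3′ on the strand of the gene because they hold the letters these genes share, with the matched cores in capitals. *H2-Aa*, where only the Y core matched, is shown beside them.
H2-Oa, chr17:34092292-34092345, plus strand: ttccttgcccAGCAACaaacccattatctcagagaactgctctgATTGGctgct
H2-Ob, chr17:34238804-34238857, plus strand: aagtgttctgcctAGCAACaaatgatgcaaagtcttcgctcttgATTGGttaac
H2-Eb1, chr17:34305764-34305817, plus strand: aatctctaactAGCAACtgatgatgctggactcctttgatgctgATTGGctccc
H2-Aa, chr17:34287862-34287915, minus strand: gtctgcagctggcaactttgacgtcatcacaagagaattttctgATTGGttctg

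In the 3 windows shown that hold the pair, the starts of the cores were 34 bases apart in *H2-Oa*, 31 in *H2-Ob* and 33 in *H2-Eb1*. They were 34 bases apart in *H2-DMb1* too, whose window lies in an annotated GENCODE exon and is not shown. Taken alone and on either strand, ATTGG was in a promoter entry of all 7 genes (37.4% of all entries) and AGNAAC in those of 5 (48.1%). ACGTG, the core of XBP1s binding sites, was in 0 of 7 (19.6% of all entries). These are matches of letters, and no binding was measured here. None of the 10 genes was in the lists of 60 XBP1 targets or 79 targets of IRE1-dependent decay that the study used.

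Class II transcripts were among the most abundant of these cells. Together the 10 genes took 7.56% to 8.06% of all counts in control pools, 6.68% to 7.45% in XBP1ΔDC pools and 6.01% to 7.39% in XBP1ΔDCIRE1truncDC pools. By mean control CPM, *Cd74* ranked 1st of the 10951 genes tested, *H2-Ab1* 3rd, *H2-Aa* 7th and *H2-Eb1* 8th. Per kilobase of transcript, the control means were 25138 ± 1211 CPM per kb for *Cd74*, 17132 ± 694 for *H2-Ab1*, 9496 ± 351 for *H2-Aa* and 5391 ± 181 for *H2-Eb1* (SD, n = 4). The editors *H2-DMb1* and *H2-DMa* followed at 770 ± 63.0 and 648 ± 33.2 CPM per kb. *H2-Oa* (120 ± 6.03), *H2-Ob* (110 ± 4.88), *Ciita* (94.7 ± 2.57) and *H2-DMb2* (71.6 ± 12.0 CPM per kb) came last.

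The control ranges of neighbours in this order were apart for *Cd74*, *H2-Ab1*, *H2-Aa*, *H2-Eb1* and the H2-DM genes, whereas *H2-DMb1* overlapped *H2-DMa* (691 to 837 against 625 to 696 CPM per kb) and *H2-Oa* overlapped *H2-Ob* (115 to 129 against 105 to 116 CPM per kb). The first 6 places were held by the same genes in all 3 genotypes. The exchanges among the last 4 placed *H2-Oa* 7th in control, 8th in XBP1ΔDC and 9th in XBP1ΔDCIRE1truncDC. Outside the 10 genes, *H2-Eb2*, a second E beta gene, was at 1.69 to 3.83 CPM per kb in control, and *H2-Ea-ps*, the E alpha gene that C57BL/6 mice carry in a disrupted form, had 0 to 3 counts per pool. *H2-Eb1*, the beta partner of that chain, was thus an abundant transcript while its alpha partner was near 0.

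**Figure D1:**
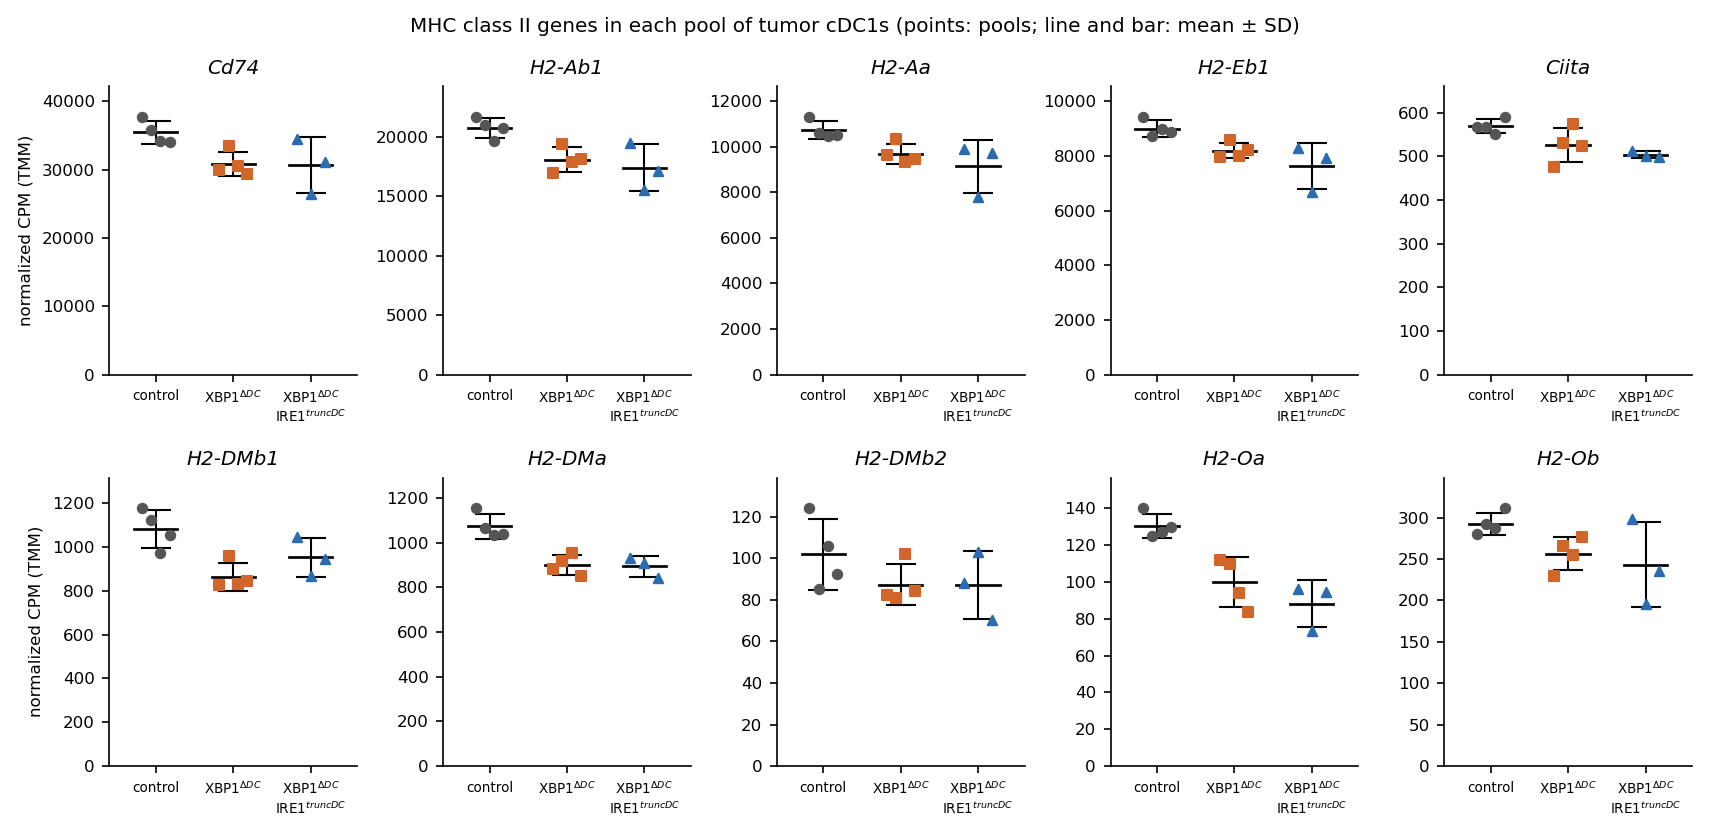
Normalized CPM (TMM) of the 10 class II genes in each pool, with 1 panel per gene and an axis from 0. Points are pools, and the line and bar are the mean ± SD of 4 control, 4 XBP1ΔDC and 3 XBP1ΔDCIRE1truncDC pools. XBP1ΔDC pools lie below all control pools in 8 genes, with *Ciita* and *H2-DMb2* overlapping.

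Against control, class II transcripts were modestly lower in both deficient genotypes, and no gene passed the test. The log2 fold changes ran from -0.38 (*H2-Oa*) to -0.11 (*Ciita*) in XBP1ΔDC and from -0.57 (*H2-Oa*) to -0.18 (*H2-DMb1* and *Ciita*) in XBP1ΔDCIRE1truncDC. A gene was called when its adjusted p (edgeR's quasi-likelihood test with Benjamini-Hochberg adjustment over 10951 genes) was under 0.05 and its fold change above 1.5. By this rule 0 of the 10 genes were called in XBP1ΔDC (0.493% of all genes), 0 in XBP1ΔDCIRE1truncDC (0.210%) and 0 between the deficient genotypes (0.0731%). The lowest adjusted p-values from edgeR were 0.129 for *H2-DMa* in XBP1ΔDC and 0.0736 for *H2-Oa* in XBP1ΔDCIRE1truncDC.

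The direction was shared by all members. In XBP1ΔDC all 10 log2 fold changes were below 0 (48.8% of all genes), and 5 genes were lower at an unadjusted p under 0.05 from edgeR (4.95% of all genes): *H2-Ab1*, *H2-DMa*, *H2-DMb1*, *H2-Oa* and *Cd74*. Every XBP1ΔDC pool was below every control pool in 8 genes (3.67% of all genes). In XBP1ΔDCIRE1truncDC all 10 were again below 0 (50.6%), 8 were lower at an unadjusted p under 0.05 (5.44%), with *H2-DMb1* and *H2-DMb2* as the exceptions, and 6 had no overlap with control (5.81%). The median log2 fold change of the 10 was -0.20 in XBP1ΔDC and -0.23 in XBP1ΔDCIRE1truncDC, where the median of all genes was 0.00 in both. Most of the 10 genes varied together over the pools, as given below, so these counts are not of independent genes. Both comparisons use the same control pools, and control replicate 1 was the highest of all 11 pools in 8 of the 10 genes. The pools are bulk samples, so less class II RNA per cell and fewer cells with high class II cannot be told apart.

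**Figure D2:**
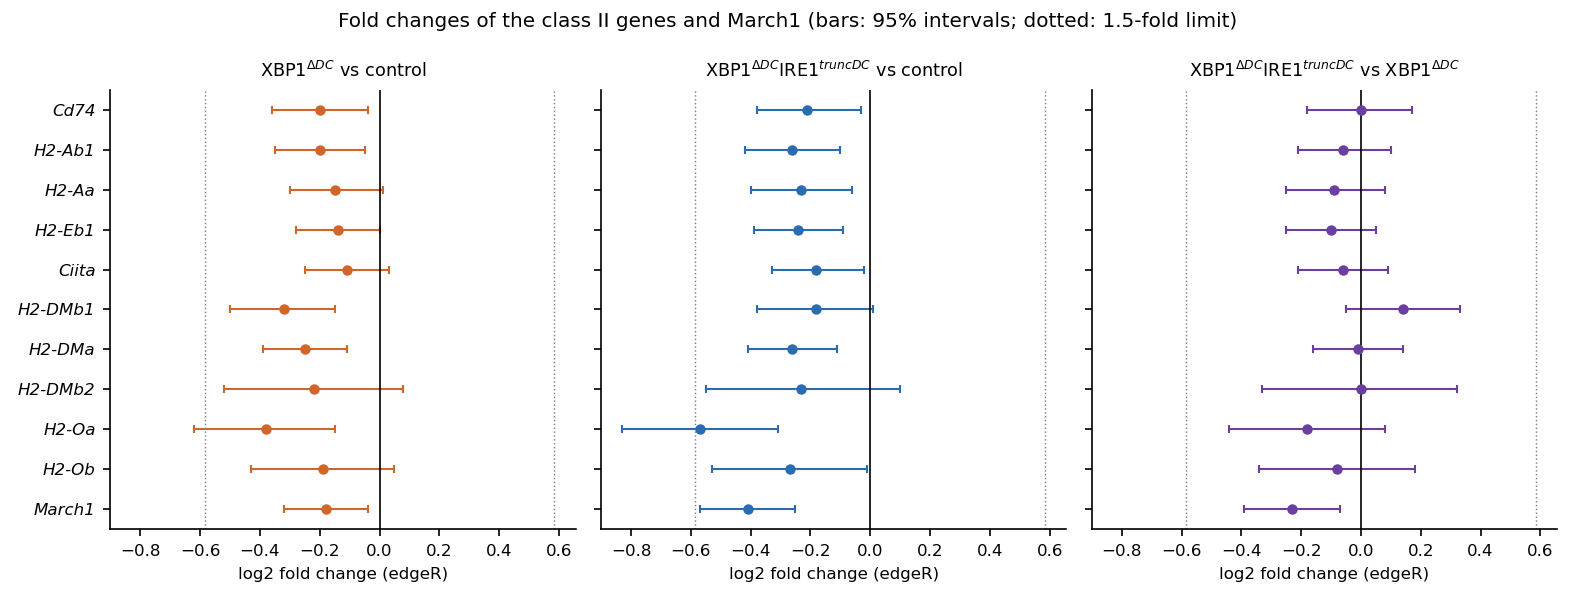
Log2 fold changes of the 10 class II genes and *March1* in the 3 comparisons (x axis, edgeR), with 95% intervals as bars and the 1.5-fold limits as dotted lines. All 10 class II genes are left of 0 in both comparisons with control, and all their intervals include 0 between the deficient genotypes.

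*Cd74*, the invariant chain (chromosome 18, 60803848 to 60812652, GRCm38), had 37692, 35845, 34223 and 34016 CPM in the 4 control pools, 29906, 33381, 30482 and 29357 CPM in XBP1ΔDC, and 34528, 26397 and 31163 CPM in XBP1ΔDCIRE1truncDC. Here and below, values run in the order of the replicate numbers. All XBP1ΔDC pools were below the controls, and 1 XBP1ΔDCIRE1truncDC pool lay within the control range. The log2 fold changes against control were -0.20 (95% interval -0.36 to -0.04) and -0.21 (-0.38 to -0.03), with adjusted p = 0.465 and 0.344 from edgeR.

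*H2-Ab1*, the beta chain of I-A, the class II molecule that C57BL/6 mice present with, was at 21662, 20996, 19639 and 20758 CPM in control, 16916, 19394, 17858 and 18127 CPM in XBP1ΔDC and 19471, 15549 and 17116 CPM in XBP1ΔDCIRE1truncDC pools. No deficient pool reached the control range. In XBP1ΔDC it differed from control by -0.20 on the log2 scale (95% interval -0.35 to -0.05, adjusted p = 0.388 from edgeR) and in XBP1ΔDCIRE1truncDC by -0.26 (-0.42 to -0.10, adjusted p = 0.200 from edgeR).

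*H2-Aa*, the alpha chain of I-A, was at 11297, 10598, 10445 and 10505 CPM in control, 9648, 10321, 9325 and 9454 CPM in XBP1ΔDC and 9892, 7783 and 9717 CPM in XBP1ΔDCIRE1truncDC pools. *H2-Eb1* went from 8725 to 9423 CPM in control to 7971 to 8564 CPM in XBP1ΔDC and 6679 to 8286 CPM in XBP1ΔDCIRE1truncDC pools. For both chains the groups did not overlap with control. The log2 fold changes were -0.15 and -0.23 for *H2-Aa* and -0.14 and -0.24 for *H2-Eb1*, in the same order of genotypes, with adjusted p from edgeR of 0.712, 0.288, 0.672 and 0.218.

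*H2-DMa*, the alpha chain of the editor, was at 1154, 1065, 1036 and 1039 CPM in control, 884, 920, 954 and 851 CPM in XBP1ΔDC and 933, 910 and 841 CPM in XBP1ΔDCIRE1truncDC pools. All 7 deficient pools were below all 4 controls. The log2 fold change was -0.25 in XBP1ΔDC (95% interval -0.39 to -0.11) and -0.26 in XBP1ΔDCIRE1truncDC (-0.41 to -0.11), with adjusted p = 0.129 and 0.161 from edgeR.

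*H2-DMb1*, its main beta chain here, was at 1175, 1124, 971 and 1055 CPM in control, 824, 958, 829 and 845 CPM in XBP1ΔDC and 1045, 865 and 946 CPM in XBP1ΔDCIRE1truncDC pools. Against control the log2 fold changes were -0.32 in XBP1ΔDC, where no pool reached the control range, and -0.18 in XBP1ΔDCIRE1truncDC, with adjusted p = 0.133 and 0.471 from edgeR. It was the 1 member whose fitted value was higher in XBP1ΔDCIRE1truncDC than in XBP1ΔDC, with a log2 difference of 0.14 (95% interval -0.05 to 0.33, adjusted p = 0.967 from edgeR). *H2-DMb2*, the second beta gene, was at 85.3 to 124 CPM in control, 81.1 to 102 CPM in XBP1ΔDC and 70.2 to 103 CPM in XBP1ΔDCIRE1truncDC pools, and the groups overlapped, with log2 fold changes of -0.22 and -0.23. Single pools moved these values widely: in XBP1ΔDC the log2 fold change was -0.12 without control replicate 1, and in XBP1ΔDCIRE1truncDC it was -0.12 without that pool, -0.09 without XBP1ΔDCIRE1truncDC replicate 3 and -0.36 without replicate 2. The transcripts of *H2-DMb1* and *H2-DMb2* share 27.2% and 26.8% of their 50-base windows, so reads between them are uncertain.

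*H2-Oa*, the alpha chain of the editor inhibitor, had the largest differences of the 10 genes. It was at 140, 125, 127 and 130 CPM in control, 112, 110, 94.2 and 83.8 CPM in XBP1ΔDC and 96.4, 73.6 and 94.7 CPM in XBP1ΔDCIRE1truncDC pools. All deficient pools were below all controls. The level was 23.4% lower in XBP1ΔDC (log2 fold change -0.38, 95% interval -0.62 to -0.15, adjusted p = 0.225 from edgeR) and 32.5% lower in XBP1ΔDCIRE1truncDC (-0.57, -0.83 to -0.31, adjusted p = 0.0736 from edgeR). Another test, DESeq2, put the second difference at an adjusted p of 0.00361, and edgeR without TMM scaling at 0.0446, with log2 fold changes of -0.56 and -0.57 that stayed short of the 1.5-fold limit.

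*H2-Ob*, the beta chain of the inhibitor, was at 280 to 311 CPM in control, 229 to 276 CPM in XBP1ΔDC and 298, 196 and 235 CPM in XBP1ΔDCIRE1truncDC pools. The last of these genotypes overlapped control through replicate 1 and spread more widely, with a coefficient of variation of 21.3% against 4.45% in control. The log2 fold changes were -0.19 and -0.27, with adjusted p = 0.786 and 0.424 from edgeR. The second was -0.44 without XBP1ΔDCIRE1truncDC replicate 1 and -0.14 without replicate 2.

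Ratios between subunits and partners were compared as well. The summed H2-DM over the summed H2-O counts per kb was 6.11 to 6.94 in control, 6.22 to 6.79 in XBP1ΔDC and 6.84, 8.78 and 7.03 in XBP1ΔDCIRE1truncDC replicates 1 to 3. These ratios are a description with no test, and the highest of them came from XBP1ΔDCIRE1truncDC replicate 2. *H2-Oa* over *H2-Ob* per kb was 1.03 to 1.23 in control, 0.746 to 1.20 in XBP1ΔDC and 0.794 to 0.991 in XBP1ΔDCIRE1truncDC pools. *Cd74* over the sum of *H2-Aa* and *H2-Ab1* per kb stayed within 0.892 and 0.986 in all 11 pools, and *H2-Aa* over *H2-Ab1* within 0.538 and 0.613.

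**Figure D3:**
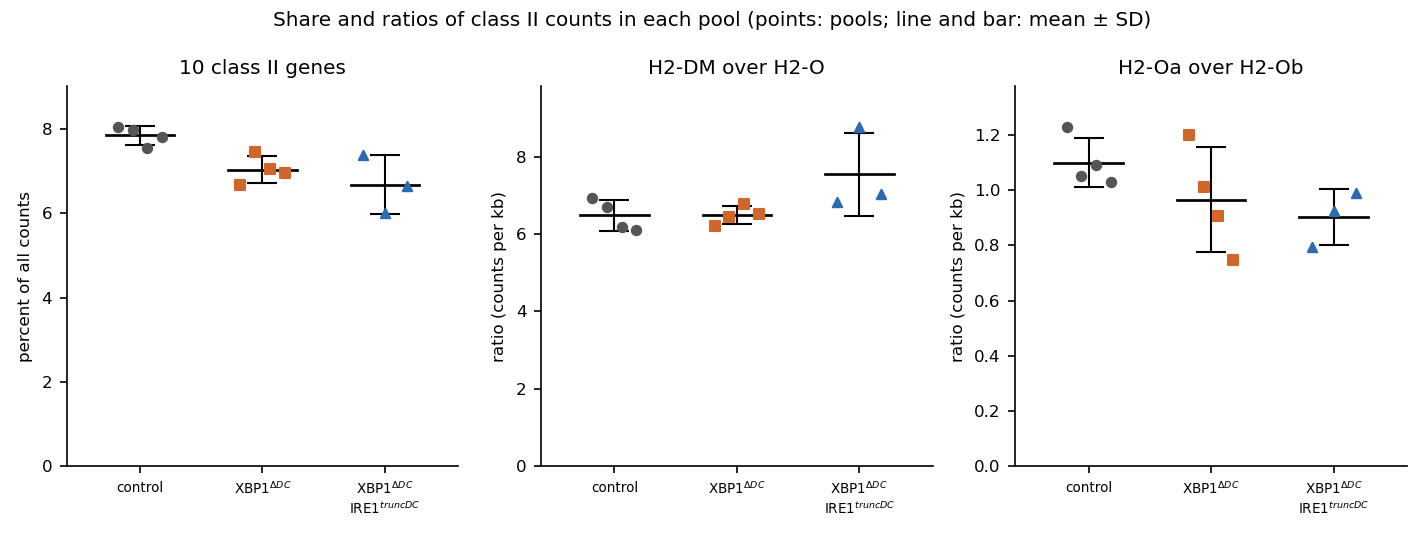
Share of all counts taken by the 10 class II genes (percent, left), and the ratios of H2-DM to H2-O (middle) and of *H2-Oa* to *H2-Ob* (right) from counts per kb, each axis from 0. Points are pools, and the line and bar are the mean ± SD. The class II share is 7.56% to 8.06% in control and 6.01% to 7.45% across the deficient pools, and the H2-DM to H2-O ratio of 8.78 belongs to XBP1ΔDCIRE1truncDC replicate 2.

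*Ciita*, the transactivator, was among the members that differed least. It was at 568, 566, 552 and 590 CPM in control, 476, 530, 573 and 524 CPM in XBP1ΔDC and 512, 501 and 498 CPM in XBP1ΔDCIRE1truncDC pools. XBP1ΔDC overlapped control through replicate 3, and XBP1ΔDCIRE1truncDC pools were below all controls. Its level was 7.64% lower in XBP1ΔDC (adjusted p = 0.772 from edgeR) and 11.5% lower in XBP1ΔDCIRE1truncDC (adjusted p = 0.359 from edgeR). The log2 fold change in XBP1ΔDC was -0.07 without XBP1ΔDC replicate 1, against -0.11. Counts over the whole gene do not separate its alternative promoters.

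Between the deficient genotypes no difference was detectable. In XBP1ΔDCIRE1truncDC against XBP1ΔDC the log2 differences ran from -0.18 (*H2-Oa*) to 0.14 (*H2-DMb1*), and 9 of 10 were below 0 (49.6% of all genes). Of the 10 genes, 0 had an unadjusted p under 0.05 from edgeR (5.29%), and 0 were lower without overlap (2.96%). The 2 genotypes are separate mouse lines, so loss of the RNase domain and other differences between the lines cannot be told apart. For *Cd74* the log2 difference was 0.00 with a 95% interval of -0.18 to 0.17, and for *H2-Ab1* it was -0.06 (-0.21 to 0.10). Single pools moved the outermost values. Without XBP1ΔDCIRE1truncDC replicate 2 the log2 difference of *H2-Oa* was -0.07 and 5 of 10 genes were below 0, and without replicate 1 that of *H2-DMb1* was 0.07. When each pool was left out, *H2-Oa* stayed between -0.26 and -0.07 and *H2-DMb1* between 0.07 and 0.20. True differences of any size within the 95% intervals remain possible with the pools at hand.

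XBP1ΔDCIRE1truncDC replicate 2 stood apart. It had the lowest value of all 11 pools in 6 of the 10 genes (*H2-Aa*, *H2-Ab1*, *H2-Eb1*, *H2-Oa*, *H2-Ob* and *Cd74*), and it was the highest of its group in *H2-DMb2*. The interferon-induced *Iigp1* was at 201 CPM in this pool, against 12.2 to 75.2 CPM over the other pools of all genotypes. Without this pool, 6 of the 10 genes rather than 8 had an unadjusted p under 0.05 against control in edgeR, while over all genes 1306 of 10903 rather than 1224 of 10951 had one. The log2 fold changes against control were -0.13 for *H2-Aa*, -0.18 for *H2-Ab1*, -0.15 for *H2-Eb1*, -0.12 for *H2-DMb1*, -0.11 for *Cd74*, -0.14 for *H2-Ob* and -0.45 for *H2-Oa*. All 10 stayed below 0.

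Over the 11 pools, the class II genes varied together. Pearson's r of log2 CPM with the mean of *H2-Aa*, *H2-Ab1* and *Cd74* was 0.960 for *H2-Eb1*, 0.882 for *H2-Oa*, 0.856 for *H2-Ob* and 0.839 for *H2-DMb1*. It was lower for *H2-DMa* (0.747) and *Ciita* (0.637), and 0.220 for *H2-DMb2*. Among all other genes the 5 most alike were *Fcgrt*, the neonatal Fc receptor (0.977), the integrin *Itgb7* (0.967), *Fcrlb* (0.964), the lysosomal mannosidase *Man2b1* (0.959) and the lysosomal glycoprotein *Cd68* (0.942). *Cd68*, which also stands in the macrophage list, was at 318, 318, 245 and 299 CPM in control, 234, 261, 220 and 227 CPM in XBP1ΔDC and 246, 178 and 214 CPM in XBP1ΔDCIRE1truncDC pools. Its log2 fold changes against control were -0.33 and -0.47 (adjusted p = 0.392 and 0.149 from edgeR), and its part in the results was not tested. Of the 10 genes tested in that list, 7 were above 0 in each comparison, with medians of 0.46 in XBP1ΔDC and 0.18 in XBP1ΔDCIRE1truncDC. At an unadjusted p under 0.05 from edgeR, *Cd68* was the 1 lower gene in each (4.95% of all genes in XBP1ΔDC and 5.44% in XBP1ΔDCIRE1truncDC). *C1qc*, a complement gene of macrophages, was the 1 higher gene in XBP1ΔDC (1.27, adjusted p = 0.655 from edgeR), where 2.67% of all genes were higher. For *Ciita* the 5 most alike were *Gnl3l* (0.921), *Chst12* (0.911), *Trp53rka* (0.908), *Rnase6* (0.898) and *Tspan2* (0.885). These values describe 11 pools that share genotype differences and tumors, and the genes were picked as the highest of all.

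Of the 8 factors that form the docking platform for CIITA (RFX, NF-Y and CREB subunits), 0 passed the test against control. Over all genes 0.493% passed in XBP1ΔDC and 0.210% in XBP1ΔDCIRE1truncDC. At an unadjusted p under 0.05 from edgeR there were 0 of the 8 as well. There 4.95% of all genes were lower and 2.67% higher in XBP1ΔDC, and 5.44% and 5.73% in XBP1ΔDCIRE1truncDC. *Rfx5* was at 20.3 CPM in control, 21.4 CPM in XBP1ΔDC and 22.2 CPM in XBP1ΔDCIRE1truncDC on average. The log2 fold changes of the 8 ran from 0.00 to 0.20 in XBP1ΔDC and from -0.16 to 0.28 in XBP1ΔDCIRE1truncDC. Of the 8, 2 were below 0 in XBP1ΔDCIRE1truncDC and 1 in XBP1ΔDC. The latter was *Rfxap*, whose value rounds to 0.00 (unadjusted p = 0.992 from edgeR). All 10 class II genes were below 0 in both comparisons. When each pool was left out, 5 to 8 of the 8 were above 0 in XBP1ΔDC and 5 to 7 in XBP1ΔDCIRE1truncDC.

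Of 16 genes known to act upstream of *Ciita*, 0 were called. In XBP1ΔDC 0 had an unadjusted p under 0.05 from edgeR, where 4.95% of all genes were lower and 2.67% higher. In XBP1ΔDCIRE1truncDC 6 had one, all higher (5.73% of all genes). Among them were *Irf1*, *Jak2* and *Socs1* of the interferon-gamma pathway, *Zbtb46*, a transcription factor of the cDC lineage, and *Ets1*. *Irf1* averaged 213 CPM in control, 294 CPM in XBP1ΔDC and 389 CPM in XBP1ΔDCIRE1truncDC, with a log2 fold change of 0.87 in the last (adjusted p = 0.238 from edgeR). *Jak2*, a kinase of the interferon-gamma receptor, averaged 376, 441 and 472 CPM, with 0.33 (adjusted p = 0.444 from edgeR). In each comparison 10 of the 16 genes were above 0 and 6 below, among the latter *Ifngr1*, a chain of the interferon-gamma receptor, which averaged 460, 366 and 346 CPM (-0.33 and -0.41, adjusted p = 0.780 and 0.491 from edgeR). The number of the 16 genes higher at that p was 3 without control replicate 2 or 4, and 4 to 6 without each other pool. Of 13 interferon-gamma response genes, all 13 had log2 fold changes above 0 in XBP1ΔDCIRE1truncDC (49.4% of all genes), 2 of them (*Gbp2* and *Gbp5*) at an unadjusted p under 0.05, with a median of 0.56. These values rested on XBP1ΔDCIRE1truncDC replicate 2, without which 6 of 13 were above 0, 0 at that p, with a median of 0.00. *Gbp2* was at 149 CPM in that pool and 66.9 and 128 CPM in the other 2 pools of its group, and *Gbp5* at 122 against 44.2 and 70.7 CPM. Without each other pool all 13 stayed above 0, with 0 to 6 at that p. In XBP1ΔDC 12 of the 13 were above 0, 0 at that p, with a median of 0.31. Leaving out each pool there gave 10 to 13 above 0 and medians of 0.14 (without XBP1ΔDC replicate 1 or 3) to 0.60.

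The endosomal processing list, which holds proteases that cut antigen and invariant chain, a protease inhibitor and lysosomal membrane proteins, was divided in direction. Of 14 genes, 8 were below 0 and 6 above in XBP1ΔDC (median -0.01), and 9 and 5 in XBP1ΔDCIRE1truncDC (median -0.11). When each pool was left out, 4 to 9 were above 0 in XBP1ΔDC (medians -0.10 to 0.06) and 4 to 6 in XBP1ΔDCIRE1truncDC (medians -0.14 to -0.07). *Ctss*, the cathepsin that trims the invariant chain, had a log2 fold change of -0.10 in the latter (unadjusted p = 0.290 from edgeR). In each comparison 1 gene had an unadjusted p under 0.05 from edgeR, and it was lower. It was the peptidase *Tpp1* in XBP1ΔDC (-0.46, adjusted p = 0.382 from edgeR), where 4.95% of all genes were lower at that p. In XBP1ΔDCIRE1truncDC it was *Lamp2*, a lysosomal membrane protein (-0.24, adjusted p = 0.338 from edgeR), where 5.44% of all genes were.

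*March1*, the ubiquitin ligase that removes class II from the surface, was the only gene of the 6 tested in the class II turnover list with an adjusted p under 0.05. It was at 212, 208, 204 and 215 CPM in control, 174, 179, 186 and 201 CPM in XBP1ΔDC and 161, 150 and 162 CPM in XBP1ΔDCIRE1truncDC pools. The groups were ordered with no overlap. In XBP1ΔDCIRE1truncDC against control it differed by -0.41 on the log2 scale (95% interval -0.57 to -0.25, adjusted p = 0.0312 from edgeR, where 0.356% of all genes had one under 0.05), which did not reach the 1.5-fold limit, and by -0.18 in XBP1ΔDC (adjusted p = 0.472 from edgeR). The difference between the deficient genotypes was -0.23 (adjusted p = 0.585 from edgeR). The call at 0.05 was lost when any control or any XBP1ΔDCIRE1truncDC pool was left out, with adjusted p from edgeR between 0.0584 and 0.0978, and also without XBP1ΔDC replicate 2 (0.0607) or 3 (0.0540), which enter the fit. Across these fits its log2 fold change was -0.43 to -0.37. *Cd83*, which protects class II from this ligase, averaged 2334, 2514 and 2948 CPM, with an unadjusted p of 0.0824 from edgeR in XBP1ΔDCIRE1truncDC.

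The median log2 fold change of class I peptide loading genes was -0.01 in XBP1ΔDC and 0.16 in XBP1ΔDCIRE1truncDC, with 6 and 1 of 11 below 0. Leaving out each pool gave medians of -0.06 to 0.08 in XBP1ΔDC, and of 0.09 (without XBP1ΔDCIRE1truncDC replicate 3) to 0.21 in XBP1ΔDCIRE1truncDC. At an unadjusted p under 0.05 from edgeR, 1 was lower (*Tapbp*, 4.95% of all genes) and 1 higher (*Nlrc5*, 2.67%) in XBP1ΔDC. In XBP1ΔDCIRE1truncDC *Calr*, *Pdia3* and *Nlrc5* were higher at that p (3 of 11, 5.73% of all genes), with 0 called. Without XBP1ΔDCIRE1truncDC replicate 2, 1 was higher and 1 lower. The class I heavy chains *H2-K1* and *H2-D1* had values of -0.02 and -0.02 in XBP1ΔDC and 0.23 and 0.12 in XBP1ΔDCIRE1truncDC. *Tapbp*, which encodes tapasin and is the gene of this list with an adjusted p under 0.05, was at 1136 to 1385 CPM in control, 695 to 1003 CPM in XBP1ΔDC and 1316 to 1494 CPM in XBP1ΔDCIRE1truncDC pools. Its log2 fold change was -0.53 in XBP1ΔDC (adjusted p = 0.0427 from edgeR, where 0.895% of all genes had one under 0.05), which did not reach the 1.5-fold limit. In XBP1ΔDCIRE1truncDC it was 0.16 (adjusted p = 0.705 from edgeR). The difference of XBP1ΔDCIRE1truncDC from XBP1ΔDC was 0.69 (adjusted p = 0.0639 from edgeR). The adjusted p in XBP1ΔDC was 0.0253 to 0.148 from edgeR when each pool was left out, and it was under 0.05 without XBP1ΔDC replicate 1 or XBP1ΔDCIRE1truncDC replicate 2 or 3 only. *Nlrc5*, the class I counterpart of *Ciita*, averaged 63.1 CPM in control, 81.1 CPM in XBP1ΔDC and 88.9 CPM in XBP1ΔDCIRE1truncDC.

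Maturation genes of dendritic cells had values in the opposite direction to class II. In XBP1ΔDCIRE1truncDC 10 of 11 were above 0, 9 of them at an unadjusted p under 0.05 in edgeR (5.73% of all genes) and 0 called, with a median log2 fold change of 0.73. Without XBP1ΔDCIRE1truncDC replicate 3, 2 of the 11 were higher at that p, with a median of 0.44, and without control replicate 2 or 4 there were 4. In XBP1ΔDC 10 of 11 were above 0 (51.2% of all genes), 1 at that p (*Relb*; 2.67% of all genes), with a median of 0.42. When each pool was left out, 0 to 6 were at that p and the median was 0.23 (without XBP1ΔDC replicate 1) to 0.55. *Ccr7*, the chemokine receptor of migrating cells, averaged 1372, 1917 and 2351 CPM in control, XBP1ΔDC and XBP1ΔDCIRE1truncDC, *Fscn1*, an actin bundler of mature cells, 738, 1073 and 1500 CPM (1213, 1040 and 2248 CPM in the XBP1ΔDCIRE1truncDC pools), and *Cd86*, a costimulatory molecule, 320, 319 and 318 CPM. These genes varied among control pools too, with *Ccr7* at 1709, 933, 1839 and 1007 CPM in the 4 controls, and the share of mature cells in each pool was not measured here. Its part in the class II values was not tested.

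**Figure D4:**
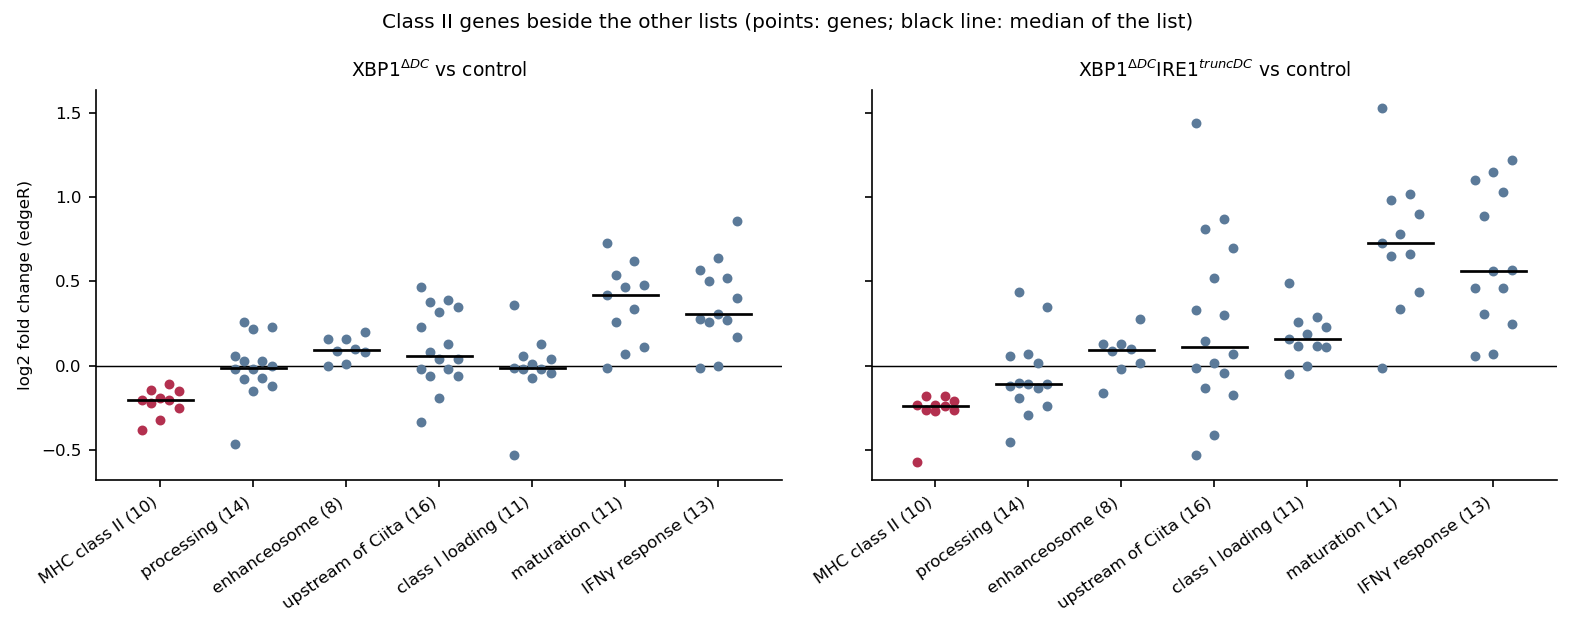
Log2 fold changes (y axis, edgeR) of the 10 class II genes in red and of 6 other gene lists in blue, for XBP1ΔDC (left) and XBP1ΔDCIRE1truncDC (right) against control. Points are genes, the black lines are list medians and the numbers of genes are in brackets. The class II medians are -0.20 and -0.23, and those of the maturation list 0.42 and 0.73.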

How the data were processed

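RNA of 11 pools was amplified with SMART-seq and sequenced as single-end reads, which the authors trimmed with Trimmomatic 0.39 and aligned with STAR 2.7.3a (mm10, per the submitters' processing notes). They counted reads with HTSeq and deposited raw counts per gene. They also deposited a table of normalized log2 values for 11118 genes, made with limma 3.42.2. Strand use and the gene annotation are not given in the sources used here, so reads of overlapping genes (*H2-DMa* with *Brd2*, *Ciita* with *Dexi*, *H2-Oa* with *BC051537*, *H2-Eb1* with *Gm20513*) may be shared.

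The filter required more than 1 CPM in 4 or more pools, which 10951 genes passed. These were scaled by TMM and fitted with edgeR 4.0.16's quasi-likelihood test (R 4.3.3) in 1 model of the 3 genotypes. P-values were adjusted by Benjamini-Hochberg over all genes tested, log2 CPM used a prior count of 2, and intervals are 95%. Separate pools are replicates. Scripts were tested on simulated data. Levels per kb used the principal GENCODE transcript. Alternatives used DESeq2 1.42.0, limma 3.58.1, other scalings, filters, sets of pools and a replicate block. Figures used python 3.11.15 and matplotlib 3.10.9.

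The members and gene lists were chosen with earlier results of these data known. By rule, genes named were all members, the targeted genes, the 5 genes most like the class II pattern and the 5 most like *Ciita*, and list genes that were among the first 3 of their list or had an unadjusted p under 0.05 in any comparison. *Iigp1*, *Cd86*, *Ifngr1* and *Pax5* fall outside it and were chosen after their values were seen. Scaling without the 10 members, and the alternatives for *March1*, *Tapbp* and the gene lists, were added after seeing the data. Single-gene results for some genes of the lists are not reported here.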

Additional observations from a re-analysis of the deposited data

Results flagged for a closer look

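Of 20 groups of 4 pools (10 genes in control and in XBP1ΔDC), 2 held a pool whose gap to its nearest neighbour was large against the range of the group by Dixon's criterion. Chance gives about 1 in 20 such groups. *H2-DMb1* in XBP1ΔDC replicate 2 was at 958 CPM, where the other three pools were at 824 to 845 CPM. *H2-DMb2* in XBP1ΔDC replicate 3 was at 102 CPM, where the other three were at 81.1 to 84.2 CPM. The XBP1ΔDCIRE1truncDC group, with 3 pools, was not examined in this way.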

How the results depend on the processing

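No class II gene was called in any comparison under any of the alternatives run, and all 10 stayed below 0 against control under each. DESeq2 gave adjusted p-values under 0.05 to *H2-DMa* and *H2-DMb1* in XBP1ΔDC (0.0254 and 0.0301) and to *H2-DMa* and *H2-Oa* in XBP1ΔDCIRE1truncDC (0.0396 and 0.00361), and scaling by library size alone to *H2-Oa* (0.0446). The number of class II genes with an unadjusted p under 0.05 in XBP1ΔDC was 8 with only the 2 groups compared in the fit (899 of all 10780 genes), against 5 (834 of 10951), and 4 to 7 when each pool was left out (633 to 905 of all genes). In XBP1ΔDCIRE1truncDC against control it was 8 (1224 of 10951), and 6 to 9 when each pool was left out (926 to 1306). Between the deficient genotypes it was 0, 1 with library size only, and 0 to 2 when each pool was left out. There *Cd74* and *H2-DMb2* changed sign at 0.00 under DESeq2, RLE scaling and no filter. Leaving out each pool gave log2 differences of -0.10 to 0.09 for *Cd74*, -0.14 to 0.13 for *H2-DMb2*, -0.15 to 0.01 for *H2-Aa*, -0.15 to 0.01 for *H2-Ab1*, -0.04 to 0.03 for *H2-DMa* and -0.25 to 0.05 for *H2-Ob*, and the cause was not tested. Deviations of same-numbered pools correlated at 0.0418 to 0.133 for XBP1ΔDC with control (mean 0.0979). Pools of unlike number there gave -0.202 to 0.249 (mean -0.0327). Same-numbered pools gave -0.0204 to 0.0270 for XBP1ΔDCIRE1truncDC with control and -0.260 to -0.142 between the deficient genotypes. Whether same-numbered pools shared a day or batch is not given in the sources used here, and the main fit had no replicate block. With a replicate block the counts at an unadjusted p under 0.05 were 5, 6 and 0, and *March1* in XBP1ΔDCIRE1truncDC had an adjusted p of 0.149 in edgeR. It was 0.0977 in limma on the deposited log2 values and 0.0844 with only the 2 groups in edgeR, and 2.96e-05 (DESeq2) to 0.0476 (no filter) in the other 7 settings that kept all pools. Each class II gene had at least 1580 counts per pool.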
